A study of Bos taurus with 252 samples.

Results

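The 40 genes described here are those of the cell cycle and of proliferation: the enzymes and helicases that copy DNA, the cyclins and kinases that drive cells into division, and the proteins of the mitotic spindle and of cytokinesis. They were taken by name from the table of 33282 genes. All 40 were present, and all 40 were among the 19056 genes that passed the filter on low counts. Their levels were read in whole blood of 42 crossbred steers on day 0 and again 3, 7, 14, 21 and 56 days later, which gave 6 RNA-seq libraries a steer. The negative control steers (NC) received no antimicrobial at the start of the trial. The other groups received 1 labelled subcutaneous dose after the blood draw of day 0. The drugs were the cephalosporin ceftiofur (CEFT), the fluoroquinolone enrofloxacin (ENRO), the phenicol florfenicol (FLOR), the tetracycline oxytetracycline (OXYT) and the macrolides tildipirosin (TILD) and tulathromycin (TULA). Each of the 7 groups held 6 steers. All steers, NC included, had been given tildipirosin, a trenbolone acetate and estradiol implant, vaccines and antiparasitics when backgrounding began, so NC is a group without a new drug rather than one never treated. Each library is 1 draw from 1 animal.

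Cells that are about to divide first load the MCM helicase onto origins of replication and make nucleotides for DNA synthesis. A later wave of genes, with cyclins A and B, CDK1, the spindle kinesins and the kinetochore proteins, is switched on as cells approach mitosis, and both waves are low in resting cells. Most leukocytes in blood are resting, so these transcripts in a blood draw are known to come mainly from activated lymphocytes, plasmablasts and a few immature cells released from the marrow. In bulk RNA, fewer dividing cells and less of these transcripts per cell cannot be told apart.

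Library totals lay between 26.1 M and 74.1 M counts (M, counts in units of 1e6) with a median of 43.6 M. Levels are given as CPM, the counts of a gene per 1e6 counts of its library, after trimmed mean of M values (TMM) scaling, and the mean over the 40 genes of log2 CPM is called the member mean. Hemoglobin transcripts took from 0.00405% to 25.5% of a library. Across all libraries the member mean had a Pearson r of 0.05 with the library total and of -0.05 with the hemoglobin share, as a description of libraries that share steers. The T, B, plasma, cytotoxic, erythroid, mature neutrophil, monocyte, progenitor and platelet markers were present in every group on every day, 1 of 10 immature neutrophil markers was at 0 in all 6 libraries of some sets, and transcripts of skin and muscle reached up to 267 CPM in single libraries. Sequencing lane followed treatment closely. Lane 1 held NC, ENRO and 2 FLOR steers. Lane 2 held TULA, the other 4 FLOR steers and 4 TILD steers, and lane 3 held CEFT, OXYT and the other 2 TILD steers. All 6 libraries of a steer were on 1 lane, so changes within steers do not cross lanes.

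The members moved together from library to library. The r of a member's log2 CPM with the mean of the other members over all libraries was above 0.6 for 34 of 40, and it was highest for RRM2, the small subunit of ribonucleotide reductase, at 0.95. It was lowest for MCM7 at 0.16, NUSAP1 at 0.22, PLK1 at 0.36, CDC45 at 0.36, KIF23 at 0.37 and E2F1 at 0.38. Of these, E2F1, a transcription factor of the G1/S switch, ranged from 0 to 21.5 CPM and had an SD of 1.10 on the log2 scale within steers. KIF23, a kinesin of the central spindle, ranged from 0 to 23.5 CPM with an SD of 1.0, and MCM7 ranged from 14.2 to 194 CPM with an SD of 0.70. The pairs among these 3 genes had r between 0.02 and 0.13, so they hardly moved with each other. Of the variance of the member mean, 27.2% lay between steers, which includes the 6.29% between treatments and the 1.55% between lanes. Days took 12.8% and treatment by day 17.4%. The library with the highest member mean of all was Tula8 on day 0, which held the highest level of 30 of the 40 members. The lowest were Flor8, Oxyt6 and Flor6, all on day 3.

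The question of the days over all 42 steers was whether these genes differed from day 0, when the steers had just arrived. Over all 6 days, 39 of the 40 members showed an effect of day in edgeR's quasi-likelihood F test with steer as a block at a false discovery rate (FDR) of 0.05, beside 77% of all genes tested. The gene not called was E2F1, with an FDR of 0.675. The smallest FDR belonged to ANLN, the anillin that scaffolds the cleavage furrow, at 9.19e-17. On day 3, 25 members were lower than on day 0 and 0 were higher, where 18.3% of all genes tested were lower and 20.5% higher. Day 7 had 3 members lower and 3 higher, beside 19.7% and 24% of all genes. For day 14 the members numbered 21 lower and 4 higher, beside 29.9% and 32.7% of all genes. By day 21 they were 16 lower and 7 higher, beside 31.6% and 32.6%. After 56 days 28 members were lower and 2 higher, beside 30.7% and 32.5%. Lower calls among the members were thus more frequent than in the table as a whole on days 3, 14 and 56. They were nearer to the share of all genes on day 21 and less frequent than it on day 7. In the order of the 5 days, the median log2 fold change of the members was -0.21, 0.04, -0.11, -0.02 and -0.28, while the median of all genes stayed between 0.02 and 0.03. On day 3 the call rested in part on the FLOR steers, and without them 12 members were lower with a median of -0.12 over 36 steers. On days 7, 14, 21 and 56 without FLOR, 8, 24, 23 and 30 members were called in either direction. Of these, 4, 20, 16 and 29 were lower. Of the 19056 genes tested, 6718 were called in either direction on day 3 without FLOR. On the later days 7759, 11798, 11844 and 11690 were.

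**Figure D1:**
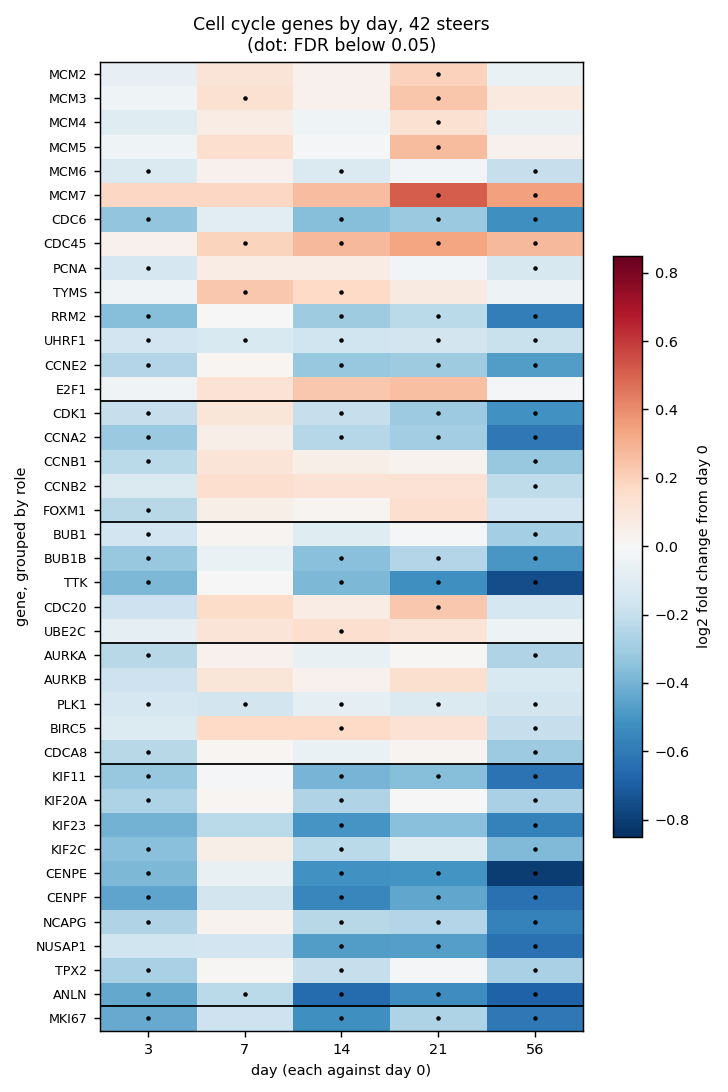
Log2 fold change of each of the 40 members (rows, ordered by role) at each later day against day 0, over 42 steers; the colour scale is the log2 fold change and a dot marks FDR below 0.05. Most kinesin, kinetochore and cytokinesis genes are lower on days 3, 14 and 56, while several MCM genes and CDC45 are higher on day 21.

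Among the genes of the spindle and of cytokinesis, all 10 were lower on day 56 and 8 on day 3. CENPF, a large kinetochore protein, had a level of 12.7, 22.7 and 94.3 CPM on day 0 as lowest, median and highest, and of 6.45, 17.5 and 34.6 CPM on day 3. The ranges overlapped, and 34 of 42 steers were below their own day 0. Its log2 fold change was -0.45 (SE 0.09, FDR 4.23e-06) on day 3, and it was -0.55, -0.44 and -0.63 on days 14, 21 and 56. CENPE, the kinesin that carries chromosomes to the spindle equator, went from a median of 6.69 CPM on day 0 to 4.28 CPM on day 56 and had the largest fall of the set there, a log2 fold change of -0.80 (SE 0.10, FDR 4e-12). It was lower in 38 of 42 steers on that day, and its log2 fold changes on days 3, 14 and 21 were -0.39, -0.52 and -0.51. ANLN had a median of 4.85 CPM on day 0 and was lower on every later day, by -0.44, -0.23, -0.66, -0.53 and -0.69 in log2 fold change. NUSAP1, which bundles spindle microtubules, had a median of 126 CPM on day 0 and 95.6 CPM on day 21, with log2 fold changes of -0.47 on days 14 and 21 and of -0.63 on day 56. KIF23 was called on day 14 at -0.50 and on day 56 at -0.57.

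TTK, the kinase that starts the spindle checkpoint, had levels of 2.08, 4.23 and 13 CPM on day 0 and of 1.11, 2.71 and 6.32 CPM on day 56 as lowest, median and highest. It was below its own day 0 in 39 of 42 steers, with a log2 fold change of -0.38 on day 3, -0.52 on day 21 and -0.75 on day 56. Of the 5 checkpoint and anaphase-promoting complex genes, 3 were lower on day 3 and 3 on day 56, and CDC20, the activator of that complex, was among the 7 members higher on day 21. MKI67, the classical marker of cells in cycle, had levels of 72.3, 146 and 599 CPM on day 0, of 42.3, 114 and 254 CPM on day 3 and of 56.3, 143 and 258 CPM on day 7. The highest value of day 0 is Tula8. Its log2 fold change was -0.43 on day 3 (SE 0.09, FDR 6.85e-05) and -0.18 on day 7 (FDR 0.122). It was -0.52, -0.26 and -0.61 on the later days. It was lower in 34 of 42 steers on day 3, in 26 on day 7 and in 35 on day 56.

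Of the cyclins, CDK1 and FOXM1, 4 of 5 were lower on day 3 and 4 of 5 on day 56. CDK1, the kinase that takes cells into mitosis, had levels of 6.75, 14.3 and 39.3 CPM on day 0, of 4.94, 12.6 and 25.7 CPM on day 3 and of at most 16.7 CPM on day 56. Its log2 fold change was -0.20 (SE 0.08, FDR 0.0374) on day 3, 0.10 (FDR 0.297) on day 7 and -0.52 (FDR 1.61e-09) on day 56, when 36 of 42 steers were below their own day 0. CCNB1, the cyclin that CDK1 binds at mitotic entry, had medians of 13.3, 11.7 and 15.3 CPM on days 0, 3 and 7 and of 11.5 CPM on day 56. It was called on day 3 at -0.23 and on day 56 at -0.32 and not on days 7, 14 or 21. Among the kinases and chromosomal passengers, PLK1 changed little in size and steadily in direction, with medians of 98.3 CPM on day 0 and between 87.9 and 92.4 CPM on the later days, and it was lower on every day against day 0.

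The genes of replication licensing and DNA synthesis held calls in both directions. On day 7 the 3 members that were higher all belonged to them: TYMS, which makes thymidylate, at a log2 fold change of 0.23 (SE 0.05, FDR 2.95e-05), CDC45, part of the replicative helicase, at 0.19 (FDR 0.000408) and MCM3 at 0.13 (FDR 0.0269). The 3 that were lower on that day were ANLN at -0.23, PLK1 at -0.16 and UHRF1, which keeps DNA methylation after replication, at -0.13. On day 21, MCM2, MCM3, MCM4, MCM5, MCM7 and CDC45 were higher. MCM7 had the largest rise, from a median of 88.4 CPM on day 0 to 129 CPM on day 21 and a log2 fold change of 0.51 (SE 0.14, FDR 0.000517). It also had the least regular levels of the licensing genes besides E2F1. CDC45 had a median of 12.8 CPM on day 0 and 17.2 CPM on day 21, above its own day 0 in 36 of 42 steers. MCM2, a subunit of the helicase, had levels of 28.9, 43.5 and 103 CPM on day 0 and of 30.3, 53.1 and 87.5 CPM on day 21, at a log2 fold change of 0.20 (FDR 0.00955). It was not called on any other day. PCNA, the sliding clamp, was lower on day 3 (-0.14, FDR 0.0107) and on day 56 (-0.13, FDR 0.00768) and within 0.07 of day 0 on the other days. On day 56, 6 of the 14 licensing genes were lower and MCM7 and CDC45 were higher.

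On day 56, 30.7% of all genes tested were lower than on day 0 and 32.5% higher, as background to the following counts. In other genes of the cell cycle, 44 of 55 further G2/M genes were lower and 2 higher on that day. DEPDC1 at -1.02, NUF2 at -0.94 and ECT2 at -0.93 were the largest changes. Of 49 further G1/S genes, 29 were lower and 12 higher on that day, and the largest changes were those of POLE2 at -1.16, E2F7 at -0.92 and GMNN at -0.79. Of 19 inhibitors of cyclin-dependent kinases and quiescence genes, 8 were lower and 5 higher. There the largest changes were RBL1 at -0.63, which was not called, CDKN1A at -0.57 and FOXO3 at -0.56. Marker lists of blood cells also moved on day 56: 9 of 10 T cell markers and 7 of 9 B cell markers were higher, while 5 of 10 plasma cell, 6 of 7 mature neutrophil and 5 of 6 monocyte markers were lower. The other blood cell lists are not given here for that day. The part of blood cells in the change of the members was not tested.

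The question of the treatments within a day was which groups differed from NC. On day 0, before any dose, the members were called in 0 of the 6 comparisons by edgeR's quasi-likelihood test at an FDR of 0.1, where 0.00437% of all tests were called. Between 0 and 6 members per comparison had an unadjusted p below 0.05, and DESeq2 also called 0. The median log2 fold change over NC was nonetheless below 0 in all 6, from -0.15 in FLOR to -0.40 in ENRO, so the NC values were already the higher ones. These comparisons, like all those against NC, use the same 6 NC libraries of a day. On days 3 to 56 there were 30 calls of a member in 30 comparisons, all of them on day 3 and all lower than NC. They fell to FLOR with 23 members, OXYT with 3, ENRO with 3 and CEFT with 1. The shares of all genes called lower there were 1.53% for FLOR, 0.887% for OXYT, 1.22% for ENRO and 3.40% for CEFT, and 0.128% of the tests were called in either direction over the other 26 comparisons. By DESeq2 the counts on day 3 were 31 for FLOR, 17 for OXYT, 14 for ENRO, 3 for TILD, 1 for CEFT and 1 for TULA. DESeq2 called 1688 genes in all in FLOR, so the shares above are not the background of its counts. Its totals in the other groups are not given here. The quasi-likelihood test called 0 in TILD (3 at an unadjusted p below 0.05) and 0 in TULA (1).

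FLOR on day 3 was the comparison with the most member calls. All 40 members had a log2 fold change below 0 against NC, 36 had an unadjusted p below 0.05, and the median was -0.86, or 54.9% of the NC level. The members made up 5.74% of the 401 genes called in that comparison. For 18 of the 40, the 6 FLOR steers and the 6 NC steers did not overlap. The share of all genes without overlap is not given here, so this count only describes the members. In the same fit, 32 of 55 other G2/M genes and 14 of 49 other G1/S genes were lower, and 0 of either were higher. Among CDK inhibitors and quiescence genes 3 of 19 were lower, namely CDKN3, a phosphatase that acts on CDK1, at -1.03, CDKN2C at -0.66 and RB1, the retinoblastoma protein.

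CDK1 had levels of 4.94, 7.66 and 8.49 CPM in FLOR and of 16.5, 19.2 and 22.3 CPM in NC as lowest, median and highest. The groups did not overlap, and the log2 fold change was -1.43 (SE 0.15, FDR 0.00366). CENPF had levels of 8.75, 12.1 and 13.3 CPM in FLOR and of 20.2, 29.8 and 34.6 CPM in NC, again without overlap, at a log2 fold change of -1.33 (SE 0.14, FDR 0.00366). RRM2 had levels of 13, 23.5 and 32.5 CPM in FLOR and of 43.6, 65.6 and 81.7 CPM in NC, with the largest log2 fold change among the called members at -1.54 (SE 0.23, FDR 0.0178). All 6 FLOR steers were below the lowest NC steer for this enzyme of nucleotide supply.

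KIF11, the motor that pushes spindle poles apart, had levels of 5.22, 8.78 and 9.62 CPM in FLOR and of 15.9, 20.1 and 27.1 CPM in NC, at -1.38 in log2 fold change (FDR 0.0178). NCAPG, a condensin subunit, had levels of 7.75, 12.2 and 13.1 CPM against 18.9, 26.2 and 29.2 CPM, at -1.14 (FDR 0.0178). Neither gene overlapped between the groups. BIRC5, or survivin, had levels of 5.96, 9.49 and 14.4 CPM against 18, 21.1 and 26.6 CPM, at -1.20 (FDR 0.0186). BUB1B, a spindle checkpoint kinase, had levels of 3.13, 3.69 and 6.07 CPM against 7.34, 10.6 and 13 CPM, at -1.31 (FDR 0.0186). These genes too were lower in every FLOR steer than in any NC steer.

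CDC6, which loads the MCM helicase, had levels of 4.21, 5.52 and 6.79 CPM in FLOR and of 8.33, 11.8 and 12.9 CPM in NC, at a log2 fold change of -1.02 (FDR 0.0186). CENPE had levels of 2.40, 3.12 and 4.72 CPM against 5.21, 8.73 and 9.91 CPM, at -1.32 (FDR 0.0197). CCNA2, the cyclin of S and G2 phase, had levels of 3.47, 5.30 and 7.51 CPM against 8.90, 12.6 and 16.4 CPM, at -1.29 (FDR 0.0213). In these 3 as well, the groups lay apart. MKI67 followed with levels of 43.5, 75.5 and 112 CPM in FLOR and of 113, 170 and 222 CPM in NC, at -1.25 (FDR 0.0301), where the highest FLOR steer nearly met the lowest NC steer. PCNA went the same way by less, with levels of 52.5, 59.3 and 73.3 CPM in FLOR and of 78.5, 90.4 and 106 CPM in NC, at -0.58 (SE 0.10, FDR 0.0279). CCNB1 had levels of 3.55, 6.23 and 10.9 CPM in FLOR and of 10.5, 15.1 and 19.7 CPM in NC, at -1.20 (FDR 0.0571), and here the groups overlapped.

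By role, the FLOR calls covered 4 of 5 genes of the cyclins, CDK1 and FOXM1, 4 of 5 mitotic kinases and chromosomal passengers, 8 of 10 spindle, kinetochore and cytokinesis genes, 2 of 5 checkpoint genes, 4 of 14 licensing genes and MKI67. The remaining calls were CCNB2, TTK, AURKA, AURKB, CDCA8, KIF20A, KIF2C, TPX2, ANLN and CCNE2, the cyclin E of the G1/S switch, with log2 fold changes from -0.70 (AURKA) to -1.39 (TTK). The members not called were MCM2, MCM3, MCM4, MCM5, MCM6, MCM7, CDC45, TYMS, UHRF1, E2F1, FOXM1, BUB1, CDC20, UBE2C, PLK1, KIF23 and NUSAP1. MCM2 had levels of 23.5, 33.1 and 51.6 CPM in FLOR and of 41.8, 50.5 and 61.8 CPM in NC, and its log2 fold change was -0.57 (FDR 0.165). TYMS had levels of 10.1, 16.2 and 19.4 CPM against 16.8, 23.3 and 25.7 CPM, and its log2 fold change was -0.44 (FDR 0.215). Both overlapped between the groups. Among the members of licensing and DNA synthesis, RRM2, CDC6, PCNA and CCNE2 were called and none of the 6 MCM subunits was. E2F1 had the most negative log2 fold change of all 40, -1.76, with an SE of 0.51 and an FDR of 0.131.

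**Figure D2:**
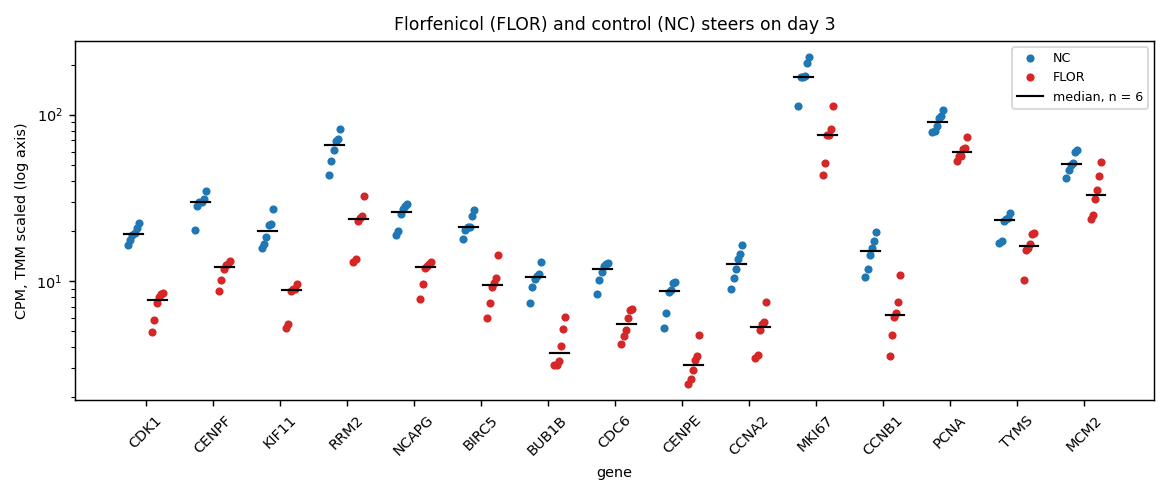
CPM on day 3 on a log axis for 15 members given in full, in the 6 NC steers (blue) and the 6 FLOR steers (red), 1 point a steer, with the median as a bar. For CDK1, CENPF, RRM2 and KIF11, every FLOR point lies below every NC point, while CCNB1, TYMS and MCM2 overlap.

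The calls in FLOR on day 3 depended in number on single steers and on how lane was handled. They numbered 15 without Flor10, NC12 or NC7 and 28 without Flor3, and 14 members were called with any of the 12 steers left out. After ComBat_seq adjustment by lane, edgeR's quasi-likelihood test called 17 members and 78 of all genes, with a median of -0.81 and all 40 below 0. The likelihood ratio test on those adjusted counts called 21 members. With lane as a term, the quasi-likelihood test called 0 members and 6 of all genes, and 19 members had an unadjusted p below 0.05. The median was then -0.58 and 39 of 40 were below 0. The 2 FLOR steers of lane 1 against NC, which was on that lane, gave 0 calls, 21 members at an unadjusted p below 0.05, 39 below 0 and a median of -0.58, in a comparison that called 0 of all genes. The 4 FLOR steers of lane 2 against the TULA steers of that lane gave 0 calls, 37 members at an unadjusted p below 0.05, all 40 below 0 and a median of -0.88. This comparison called 1 of all genes. It sets FLOR against another treatment and not against NC, and the lane 1 comparison rests on 2 FLOR steers, with MCM7 at 0.13. The part of lane in the FLOR calls cannot be told apart from that of treatment.

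The other 3 groups with calls on day 3 shared a few of these genes. In OXYT, CDK1 at -0.88, CENPF at -1.15 and KIF23 at -0.67 in log2 fold change were lower than NC, 27 members had an unadjusted p below 0.05 and the median was -0.50. In ENRO they were CDK1 at -0.76, CENPF at -0.93 and MKI67 at -0.71, with 19 members at an unadjusted p below 0.05 and a median of -0.37. ENRO already stood below NC before the dose. The group average of the member mean was 4.24 in ENRO and 4.61 in NC on day 0, and 4.09 and 4.46 on day 3. In CEFT only CENPF was called, at -0.70, with a median of 0.01. After ComBat_seq by lane the same test called 0 members in OXYT (1 by the likelihood ratio test), 0 in CEFT and 3 in ENRO, and with lane as a term it called 0, 0 and 1. OXYT and CEFT shared no lane with NC. These small counts also rested on single steers. In OXYT they were 0 without NC7, NC15 or Oxyt5, 1 without NC12, NC13, Oxyt2 or Oxyt9 and 10 without NC5. In ENRO they were 0 without NC7, 1 without NC12, Enro5, Enro8 or Enro10 and 6 without NC5. In CEFT they were 0 without NC1, NC7, NC12, NC13, NC15, Ceft3, Ceft4, Ceft5 or Ceft6 and 3 without Ceft10. After day 3, 20 members in OXYT on day 56 and 21 in TULA on day 14 had an unadjusted p below 0.05 while 0 passed the FDR, with medians of -0.34 and -0.35. DESeq2 called 10 and 5 members in these comparisons, and its share of all genes there is not given here.

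The change of each steer from its own day 0 removes the difference between animals and lanes that was there before the dose. In FLOR, 35 of 40 members were lower on day 3 than on day 0 and 0 higher, with a median log2 change of -0.93, beside 3.91% of all genes tested that were lower. The 5 not called were MCM5, MCM7, CDC45, KIF23 and NUSAP1. RRM2 had levels of 47.2, 66.3 and 83.6 CPM in FLOR on day 0 and of 13, 23.5 and 32.5 CPM on day 3, without overlap, and fell to 32.7% of day 0 (log2 change -1.61, SE 0.21, FDR 5.85e-08). KIF2C, the kinesin that takes microtubules apart at centromeres, fell to 38.9%, CCNA2 to 39%, CDC6 to 43.6%, CCNB1 to 43.7% and MKI67 to 44.6% of day 0. CDK1 fell to 51.8%, MCM2 to 61.8%, PCNA to 68.4% and TYMS to 72.1%. CDK1 had levels of 11.9, 14.0 and 14.9 CPM on day 0 and of 4.94, 7.66 and 8.49 CPM on day 3. Leaving out 1 FLOR steer at a time left between 30 and 36 members called.

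The member mean fell by 1.31 in Flor6, 1.21 in Flor8, 1.10 in Flor4, 0.96 in Flor7 and 0.66 in Flor10 on the log2 scale, and the change was -0.01 in Flor3. The members lower than on the steer's own day 0 numbered 38 or 39 of 40 in the first 5 steers and 21 in Flor3. By day 7 the median change of the members in FLOR was 0.00 and 1 member, PLK1, was lower at -0.27, where 6.31% of all genes were. MKI67 in FLOR stood at a median of 172 CPM on day 0, 75.5 CPM on day 3 and 146 CPM on day 7. RRM2 stood at 66.3, 23.5 and 65.2 CPM on those days. The fall was thus present on day 3 and not detected over the group on day 7, when the steers differed. Flor4, Flor7 and Flor8 then had 34, 34 and 36 members below their own day 0. Their member mean changed by -0.24, -0.13 and -0.68. In Flor10, Flor6 and Flor3 the members below were 15, 12 and 0, with changes of 0.15, 0.11 and 0.82.

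**Figure D3:**
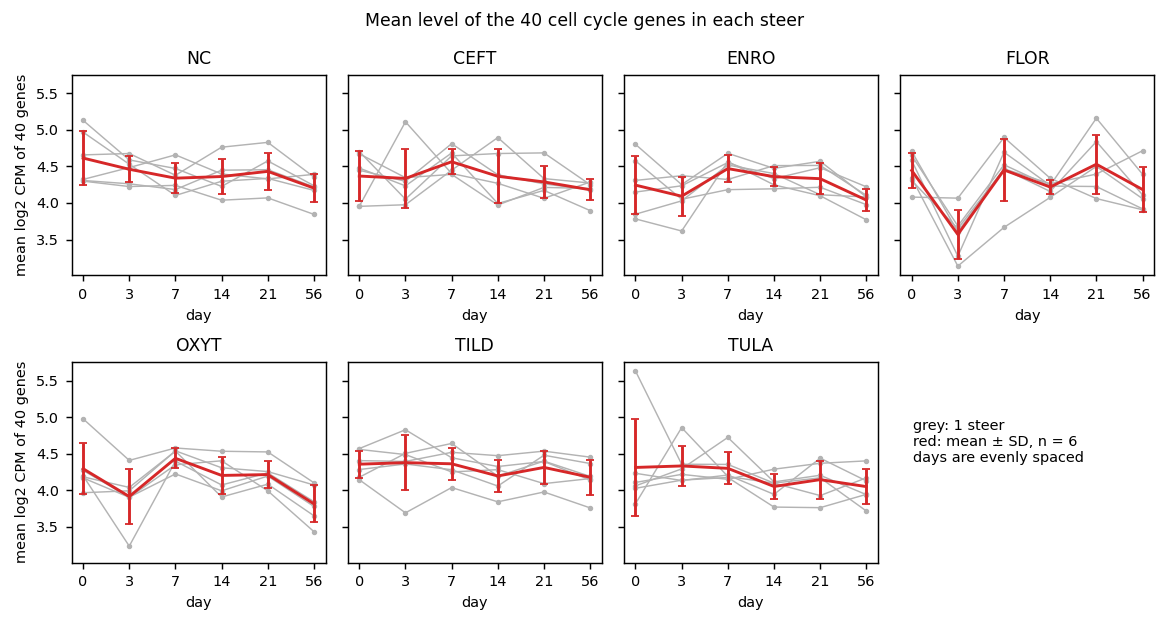
Member mean (mean log2 CPM of the 40 genes) against day, with days evenly spaced, in each of the 7 groups. Grey lines are single steers, and red lines with bars are the mean and SD of 6 steers. In FLOR the lines of 5 steers drop on day 3, and in TULA the line of Tula8 starts at 5.63, above every other library.

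In the other groups 0 members were called on day 3 against day 0 in the same quasi-likelihood fit. In NC, 1 had an unadjusted p below 0.05, with a median log2 change of -0.19, where 0.241% of all genes were called. Over the other 5 treatments 7.53% of all tests were called. The members at an unadjusted p below 0.05 numbered 18 in OXYT (median -0.35), 5 in ENRO (-0.19), 3 in CEFT (0.04), 3 in TULA (-0.06) and 1 in TILD (0.04). A threshold passed in FLOR and not elsewhere does not show that FLOR differed from the rest, and the differences of the changes were tested themselves.

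The change in FLOR less that in NC gave 0 calls for day 3 by the quasi-likelihood test at an FDR of 0.05, with 30 members at an unadjusted p below 0.05 and a median of -0.71. No gene of the table passed in that contrast, and limma voom (steer as a random block) called 1 member. Taking all 5 later days together, the timepoint:group interaction called 14 members in FLOR, where 0.404% of all genes were called. They were RRM2 (FDR 0.00083), CDC6 (0.0053), MKI67, BUB1B, KIF2C, TPX2, CENPF, CDK1, KIF11, KIF20A, CCNA2, BIRC5, CCNB1 and CDCA8. The count fell to 1 without Flor6, 2 without Flor10, 2 without NC7, 3 without Flor4, 4 without Flor8, 4 without NC12, and 8 without NC13 or NC15, and it rose to 21 without Flor3. It was 9 after ComBat_seq by lane and 1 without steer as a block. The same test called CENPF, MKI67 and ANLN in ENRO (7.27% of all genes), a count that was 0 without Enro2 and 1 without NC7, and 0 in CEFT, OXYT, TILD and TULA, where 1.31% of all tests were called. There, 3, 8, 0 and 0 members had an unadjusted p below 0.05, and limma voom called 1, 3, 0 and 0.

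Against the other treatments, the fall in FLOR from day 0 to day 3 was larger than the change in CEFT for 16 members, in TILD for 13 and in TULA for 5 (CDC6, RRM2, CCNB1, CCNB2 and NCAPG). The shares of all genes called lower were 0.530%, 0.194% and 0.105%. Against ENRO and OXYT 0 members were called, with 31 and 19 at an unadjusted p below 0.05, where 0.00262% of the tests were called. RRM2 had the smallest FDR of the members in each of the 5 contrasts, tied with KIF2C against CEFT (both 0.00353), with differences from -1.10 (OXYT, FDR 0.532) to -1.54 (TULA, FDR 0.0123) on the log2 scale. These counts rested on single steers. Against CEFT they were 0 without Ceft10, 3 without Flor6, 7 without Flor4, 10 without Flor7 and 26 without Flor3. Against TILD they were 0 without Flor4, Flor6, Flor8 or Tild5, 1 without Tild3 or Tild7, 2 without Flor7, 4 without Tild10, 6 without Tild8 and 26 without Flor3. Against TULA they were 0 without Flor4, Flor6, Tula3 or Tula7, 1 without Flor8, Tula4, Tula5 or Tula6, 2 without Flor7, 17 without Flor3 and 31 without Tula8.

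**Figure D4:**
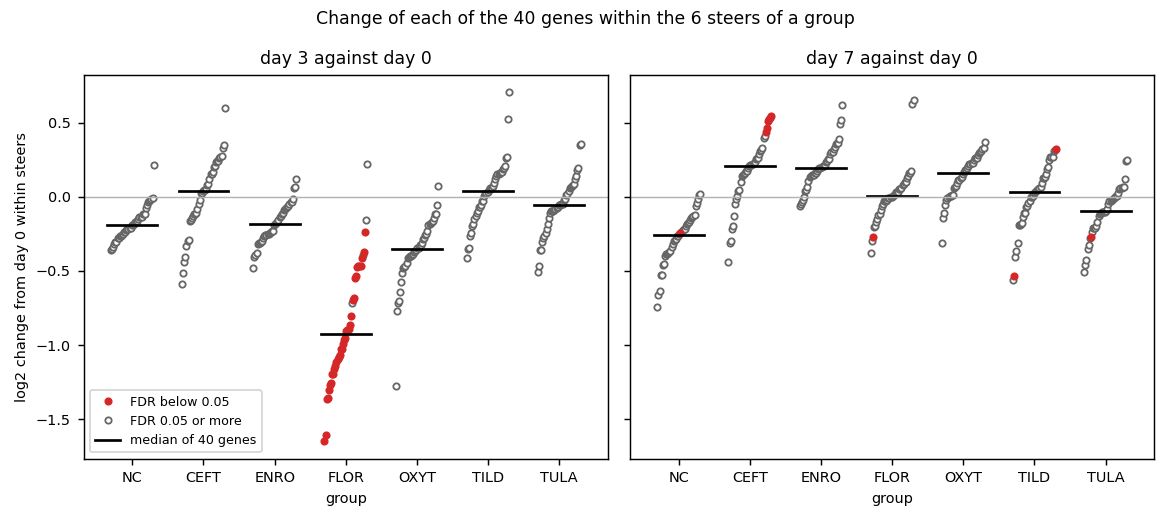
Log2 change of each of the 40 members from day 0 to day 3 (left) and to day 7 (right) within the steers of each of the 7 groups, 1 point a gene, filled in red where the FDR was below 0.05, with the median as a bar. On day 3 the FLOR points centre on -0.93 and the medians of the other groups lie between -0.35 and 0.04, and on day 7 the FLOR median is at 0.00.

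Marker lists of blood cells gave these values beside the fall in FLOR. Of 10 plasma cell markers, 4 were lower on day 3 than on day 0 in FLOR and 1 was lower than NC, and their summed level was 900 to 1679 CPM on day 0 and 574 to 889 CPM on day 3 in FLOR and 664 to 1112 CPM in NC on day 3. None of these markers was at 0 in all libraries of a group. Over all libraries the r of the plasma cell list with the member mean was 0.54, against 0.93 for other G1/S genes and 0.92 for other G2/M genes. In FLOR on day 3, 4 of 10 T cell markers were higher and 2 of 7 mature neutrophil markers lower than on day 0. Of the B cell, cytotoxic, erythroid, immature neutrophil, monocyte, progenitor and platelet lists, 0 genes were called, with medians of 0.05, -0.26, 0.54, -0.25, -0.03, 0.26 and 0.02. The part of these cells in the fall of the members was not tested.

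In ENRO the change to day 7 less that in NC was higher for 3 members, where 2.19% of all genes were. MKI67 differed by 1.28 on the log2 scale (SE 0.32, FDR 0.011), CENPF by 1.05 (FDR 0.022) and ANLN by 0.97 (FDR 0.033). MKI67 stood at 153% of day 0 in ENRO, which was not called within that group (FDR 0.050), and at 63.2% in NC. The count was 0 without Enro2 or NC7, 1 without NC5 and 5 without NC1. In OXYT the change to day 56 less that in NC was higher for PLK1 alone, by 0.39, where 0.488% of all genes were, and it was not called without NC13, Oxyt4 or Oxyt5. Over the remaining 28 coefficients edgeR called 0 members and 0.0157% of all tests, with 0 to 30 members at an unadjusted p below 0.05, and limma voom called 1 member in FLOR on day 3 and 1 in CEFT on day 14.

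Within single groups, besides FLOR on day 3, the largest counts of lower members were those of NC and OXYT on day 56 and of TULA on day 14. In NC 20 members were lower on day 56 than on day 0 (median -0.39), beside 13.2% of all genes, and without NC13, whose day 0 library had the third highest member mean, 8 were. In OXYT 19 were lower and CDC45 was higher (median -0.40), beside 18.8% of all genes. In TULA 18 were lower on day 14 (median -0.32), beside 17.6% of all genes, and without Tula8 3 were.

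Averaged over all 6 days, limma voom, in which steer was a random block, called CDK1 in FLOR, lower than NC by 0.53 on the log2 scale (SE 0.15, FDR 0.045), where 1.56% of all genes were called. In the other 5 treatments it called 0 members, with 2 to 14 at an unadjusted p below 0.05, and 2.03% of all tests. After ComBat_seq by lane this test called 0 members, CDK1 included.

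All 40 members matched 1 gene each in the RefSeq annotation, and 17 overlap another gene there, for example TYMS with ENOSF1, PLK1 with ERN2, CCNA2 with EXOSC9 and MCM7 with the microRNA genes MIR106B, MIR25 and MIR93. That annotation is of a later assembly than the one to which the reads were aligned. According to the study's methods the library kit was stranded, but counting is not stated to have used strand. How reads of such pairs were divided is therefore not known.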

How the data were processed

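Whole blood of 42 steers was sequenced on 6 days, and group, steer, day and lane were taken from the labels. According to the study's methods, the authors trimmed the reads, aligned them to ARS-UCD1.3 (HISAT2) and built transcripts (StringTie2). Their whole-number gene counts were then estimated from transcript coverage by prepDE.py3, set to a read length of 150. The deposited counts are neither normalized nor adjusted for lane, and the release of the annotation is not given in the sources used here.

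Counts were scaled by TMM over all 252 libraries with edgeR 4.0.16 in R 4.3.3, and genes above 0.2 CPM in 12 or more libraries were tested. Days, changes from day 0 and interactions were tested over all libraries by edgeR's quasi-likelihood test with steer as a fixed block, at a Benjamini-Hochberg FDR of 0.05 over all genes tested. Each treatment was compared with the 6 NC libraries of the day by the same test at an FDR of 0.1. The group effect over days came from limma 3.58.1 (voom, steer as a random block) at an FDR of 0.05. It stands in for the group term of the study's mixed model, whose tool was not available. Likewise, the quasi-likelihood test on unadjusted counts replaces the likelihood ratio test on ComBat_seq-adjusted counts that the study used, because lane and treatment are confounded. Both were run as alternatives, with DESeq2 1.42.0, sva 3.50.0, other scalings and filters, lane as a term, single lanes and single steers left out. Log2 CPM used a prior count of 2. Steers are separate animals.

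The same steer gave 6 libraries, so steer pairs the days. Over 258 genes the deviations of libraries of 1 steer had a median correlation of 0.24, and those of different steers of a group -0.07. The mean correlation was above 0.1 in 38 of 42 steers.

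The tests were tried on simulated counts, drawn independently from the overall mean of each gene. They held no steer effect shared between days, no lane effect and no correlation between genes. The simulation therefore cannot show how the tests handle lane, the steer block or genes that move together. Of genes simulated with a log2 change of 1, 49% were recovered against NC within a day, and 8.27% of the calls were false. For the change from day 0 against NC, run on 2000 genes, 48% were recovered, and 6.15% of the calls were false. At a log2 change of 0.5, 13% were recovered in that test.

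The members, the lists and the named genes were chosen with earlier results of these data known. Values in full are those of MKI67, CDK1, CCNB1, TYMS, MCM2 and PCNA, of the 5 largest called changes of each day, and of up to 10 members by smallest FDR against NC. Of the other cell cycle lists, the 3 genes with the largest change on the day with the most member calls are named. Other genes named were chosen after their values were seen. Promoters are not analysed here. Python 3.11.15 and matplotlib 3.10.9 drew the plots.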

Additional observations from a re-analysis of the deposited data

Results flagged for a closer look

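In 7 of 42 sets of 6 steers of a group on a day, the member mean of 1 steer lay apart from the other 5 by the gap test, where chance gives about 1 in 20. On the log2 CPM scale, Ceft10 stood at 5.11 in CEFT on day 3 (the others 3.98 to 4.35) and Ceft4 at 3.90 in CEFT on day 56 (4.18 to 4.29). Flor8 stood at 3.67 in FLOR on day 7 (4.46 to 4.90). Oxyt4 stood at 4.98 in OXYT on day 0 (3.97 to 4.27). In TULA, Tula8 stood at 5.63 on day 0 (3.82 to 4.23), Tula7 at 4.86 on day 3 (4.13 to 4.36) and Tula3 at 4.72 on day 7 (4.15 to 4.35). Of 54 sets examined for single genes, 1 stood out: CDK1 in Flor3 on day 0 at 11.9 CPM, with the other FLOR steers at 13.9 to 14.9 CPM.

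The following members passed a test of a difference in change between groups, gene by gene, and the counts themselves were not compared. Several fell to 0 without 1 steer, such as Enro2 for ENRO on day 7 and Ceft10 for FLOR against CEFT. The timepoint:group interaction called 14 members in FLOR and 3 in ENRO, beside 0.404% and 7.27% of all genes. The ENRO count was thus near the share of all genes. The change from day 0 less that in NC was higher for 3 members in ENRO on day 7 and 1 in OXYT on day 56. The shares of all genes called higher were 2.19% and 0.488%. The change from day 0 to day 3 was lower in FLOR for 16 members against CEFT, 13 against TILD and 5 against TULA. The shares of all genes called lower were 0.530%, 0.194% and 0.105%. Several of the steers named above (Ceft10, Flor8, Tula8, Tula3, Tula7) are also among those whose removal moved these counts.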

How the results depend on the processing

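Against day 0 the counts of members called on the 5 later days were 25, 6, 25, 23 and 30. They stayed within 1.5 times of these under DESeq2, without the filter, with library totals, with scaling without hemoglobin, after ComBat_seq and in treated steers only. NC steers alone gave 0, 1, 8 and 5 calls on days 3 to 21 and 14 in the F test over days. Lane 1 alone gave 2, 1, 6 and 7 on days 3 to 21. Lane 2 alone gave 8 on day 3, 13 on day 21 and 18 on day 56, and lane 3 alone gave 4 on day 3, 13 on day 14 and 12 on day 21. These settings hold fewer steers. Without the FLOR steers, a setting chosen after seeing the data, day 3 gave 12, and without Tula8, likewise chosen afterwards, the 5 counts lay between 9 and 29.

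The 30 calls against NC on days 3 to 56 became 1 with lane as a term, 94 by DESeq2 and 52 with library totals, and 15 to 48 when single steers were left out (17 without NC12, 19 without NC13, 48 without NC5, 15 without NC7). The shares of all genes called over these comparisons under such settings are not given here. On day 0 there were 0 calls under every setting. The calls in FLOR on day 3 were 17 after ComBat_seq by lane, and 21 when the likelihood ratio test was used on those counts. They were 0 with lane as a term, 0 for its lane 1 steers and 0 for its lane 2 steers against TULA. With single steers left out they were 15 to 28. All settings for FLOR alone were chosen after seeing the data, as were the counts with single steers left out of the changes from day 0. Those lay at 8 to 25 for NC on day 56, 3 to 21 for TULA on day 14, 1 to 21 and 0 to 3 for the interactions of FLOR and ENRO, 0 to 5 for ENRO on day 7, 0 to 1 for OXYT on day 56 and 0 to 1 for FLOR less NC on day 3. They lay at 0 to 26, 0 to 26 and 0 to 31 for FLOR less CEFT, TILD and TULA.

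Without the replicate block of steer, the 4 calls in the change from day 0 against NC became 0, the 17 interaction calls 2 and the single call in the group effect 75. The day counts without the block were 21, 5, 23, 22 and 30. With a random steer as the replicate block (limma voom), interaction calls were 28 and day 7 calls 11. Without the filter, interaction calls were 10 and group calls 11. Group calls were 2 on days 3 to 56 only and 0 after ComBat_seq. The causes were not tested.

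Treatment and lane cannot be told apart for most groups. According to the paper, each treatment group was kept in a single pen, and the groups were sampled in a fixed order. Pen and sampling order therefore cannot be told apart from treatment in any group, in the changes from day 0 included. With 6 steers a group, a difference that missed the threshold is not shown to be absent.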
